A study of Mus musculus with 550 samples.

Results

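A set of 10 genes of Nodal signalling was followed across single cells of differentiating embryoid bodies (EBs), the spheres that embryonic stem cells form as they leave pluripotency. The genes were the ligands Nodal and Gdf3, the co-receptor Tdgf1, the receptor Acvr2b, the transducers Smad2, Smad3 and Foxh1, and the secreted inhibitors Lefty1, Lefty2 and Cer1. They were chosen by name for their place in the pathway, with earlier results of these data known, as 10 of the 55228 gene names in the count table, and all 10 had an entry.

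Cells came from mouse E14 embryonic stem cells of strain 129/Ola in 3 genotypes. These were wild type (WT) and 2 mutants that each lack 1 of the de novo DNA methyltransferases: the Dnmt3a -/- line (3AKO) and the Dnmt3b -/- line (3BKO). EBs formed after withdrawal of LIF, the cytokine that holds these cells in pluripotency, and were taken at day 3 and day 9. Sorted single cells were profiled by a modification of Smart-seq2, in which reads and not molecules are counted. According to the study, each mutant was represented by independent clones, EBs of different wells were pooled, and EBs were collected for each clone. The labels do not tell which cell came from which clone, and no cultures are told apart.

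Nodal is a secreted factor of the TGF-beta superfamily that keeps epiblast cells competent and drives formation of mesoderm and endoderm in the early mouse embryo. It acts through type II receptors such as Acvr2b and a type I receptor, with Tdgf1 (Cripto) as co-receptor, and the signal reaches genes through Smad2 and Smad3, which bind DNA together with partners such as Foxh1. Nodal, Lefty1 and Lefty2 are themselves targets of the pathway, and the Lefty proteins and Cer1 restrain the ligand, so that ligand and inhibitors form a feedback loop.

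Of 550 cells, 486 had at least 50000 reads, 2000 detected genes and at most 50% mitochondrial reads, 333 of them in library batch 1 and 153 in batch 2. The groups held 79 to 83 kept cells at day 3 and 89 WT, 88 3AKO and 67 3BKO cells at day 9, and the kept cells held 54720 to 1450202 reads. Each genotype and day was 1 sample, so the values have no replicate check, no test was run, and the 2 batches are wells of the same plates, except for the mutants at day 3. There, Dnmt3a was at 25.8 CPM (reads of the gene scaled to a library total of 1000000) in batch 1 labelled 3AKO but 335 CPM in batch 2 of that label, and at 587 CPM in batch 1 labelled 3BKO but 12.8 CPM in batch 2. By Dnmt3a, the batch 2 libraries of either mutant label at day 3 thus went against their labels. Dnmt3b was at 261 and 85.1 CPM in batches 1 and 2 labelled 3AKO and 167 and 185 CPM labelled 3BKO, against 600.2 and 523 CPM in WT. It was thus lower under the label 3BKO in batch 1 and under the label 3AKO in batch 2. These 2 libraries were on plate 210, and the other 2, with the low Dnmt3a, on plate 211. By plate, both genes went the same way in the 2 batches. Below, "labelled" is used for the mutant libraries of day 3 and for sums that hold them. At day 9 the targeted genes followed the labels, with Dnmt3a at 26.1 and 23.9 CPM in 3AKO batches 1 and 2 and Dnmt3b at 15.9 and 16.8 CPM in 3BKO. All 8 epiblast markers of a fixed list had reads in at least 20% of the cells of every group, whereas at most 1 of 8 primitive streak and mesoderm markers and at most 1 of 11 endoderm markers did. Of 7 neural ectoderm markers 4 did in every group of day 3, whereas at day 9 WT and 3AKO each had 3 and 3BKO 1. At day 9 there was no read of Sox1, Nes and Fabp7 in 3BKO. The summed level of the 7 neural markers at day 9 was 197 CPM in WT, 179 CPM in 3AKO and 171 CPM in 3BKO. Of 6 trophoblast markers at most 2 had reads in at least 20% of cells. Their summed level at day 9 was lowest in WT, at 58.8 CPM, beside 95.8 CPM for 3AKO and 105 CPM for 3BKO. Whether these levels play a part in the differences of the 10 genes was not tested.

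Promoter sequences show what kind of regulatory region carries the genes that the results turn on. RefSeq (GRCm38.p6) gave an entry of 300 bases, 250 before the start and 50 after it, for Nodal, Tdgf1, Acvr2b, Smad3 and Cer1, and none for Gdf3, Smad2, Foxh1, Lefty1 and Lefty2. Nodal (chr10:61417722-61418021, plus strand) is printed as the ligand that differed most at day 9, and Tdgf1 (chr9:110946109-110946408, minus strand) as the member with the highest level per length at that day. Capitals mark CG dinucleotides, the substrate of the DNA methyltransferases that the mutants lack.
Nodal: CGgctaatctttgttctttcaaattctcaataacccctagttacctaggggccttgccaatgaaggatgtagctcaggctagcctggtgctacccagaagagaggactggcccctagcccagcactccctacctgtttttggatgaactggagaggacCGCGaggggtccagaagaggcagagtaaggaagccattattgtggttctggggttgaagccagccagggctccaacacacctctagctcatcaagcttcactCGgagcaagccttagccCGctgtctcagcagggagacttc
Tdgf1: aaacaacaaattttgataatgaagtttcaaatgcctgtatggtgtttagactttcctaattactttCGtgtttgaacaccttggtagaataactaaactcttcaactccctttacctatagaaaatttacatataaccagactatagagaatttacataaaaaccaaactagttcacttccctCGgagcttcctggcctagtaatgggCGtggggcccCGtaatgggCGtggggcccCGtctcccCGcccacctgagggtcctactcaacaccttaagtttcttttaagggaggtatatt
The Nodal window held 5 CG dinucleotides and the Tdgf1 window 7, against a median of 7 over 32851 promoters of the same length. The windows of Acvr2b and Smad3 were richer, with 27 and 25, and Cer1 had 6. The FOXH1 motif AATNCACA, searched on both strands, was in none of the 5 windows and in 3.60% of all promoters. The SMAD box GTCTG was found in Tdgf1, Acvr2b and Cer1 and in 49.6% of all promoters. These matches are descriptions of the letters only, and methylation was not measured in these cells.

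Levels are given as CPM of counts added up across all kept cells of each group. Expressed per kilobase of exon, which allows genes to be set beside each other, the inhibitors led at day 3: in WT Lefty1 was at 430 CPM per kilobase, Lefty2 at 336, Tdgf1 at 300.3, Gdf3 at 79.2, Foxh1 at 64.4 and Nodal at 59. The receptor and the Smads were far lower, with Acvr2b at 6.52, Smad2 at 5.89 and Smad3 at 0.211 CPM per kilobase, and Cer1 had no read. At day 9 the co-receptor Tdgf1 headed the order in each of the 3 genotypes, at 283 in WT, 341 in 3AKO and 380.4 CPM per kilobase in 3BKO. Behind it the order of WT and 3AKO stayed Lefty1, Lefty2 and Gdf3, whereas in 3BKO it was Lefty2 at 206, Nodal at 144, Lefty1 at 119 and Gdf3 at 79.2 CPM per kilobase. Neighbours in this order do not all stand apart, since the batches of 1 group often differed by more than such neighbours did.

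**Figure D1:**
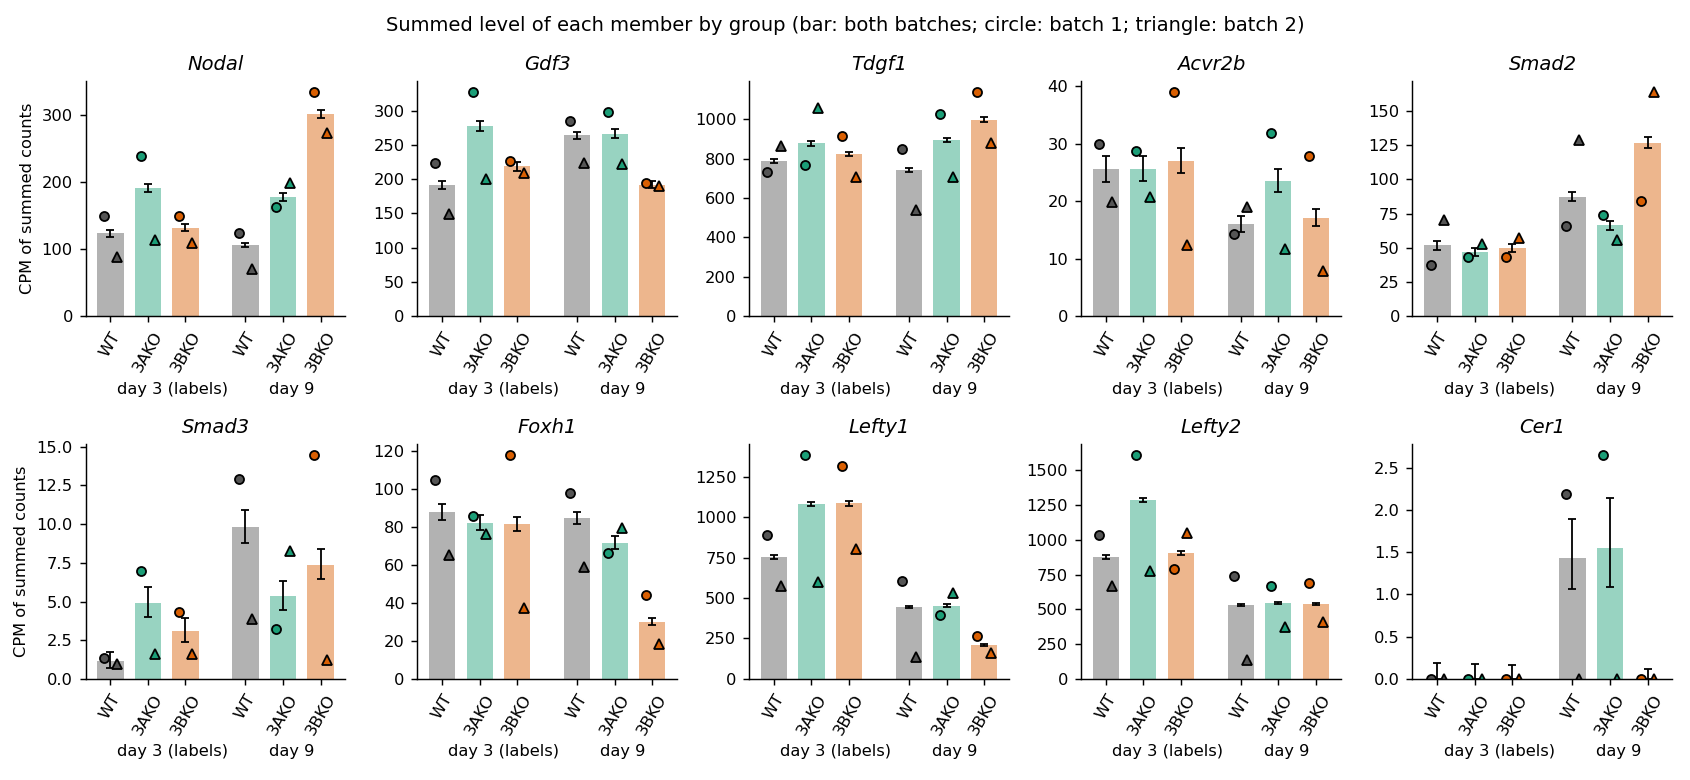
Level of each of the 10 genes (vertical axis, CPM of summed counts, own scale for each gene) in WT, 3AKO and 3BKO at day 3 and day 9; bars are both batches together with exact 95% Poisson intervals, circles batch 1 and triangles batch 2. Nodal stood at 335 and 274 CPM in the 2 batches of 3BKO at day 9, above every batch of WT, and Foxh1 stood at 44 and 18.2 CPM, below every other batch of day 9.

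Nodal was higher in 3BKO than in WT at day 9 in both batches, and Foxh1 was lower. A gene was taken as past 2-fold when its log2 ratio of CPM + 1 was at least 1 in size with the same sign in both batches, among genes that in each batch were read in no less than 20% of cells in 1 of the groups. By that rule Nodal was the 1 member of 8 measurable ones that was higher, against 2.86% of the 9235 genes examined, and Foxh1 the 1 that was lower, against 4.98%. In 3AKO against WT none of the 8 measurable members was past 2-fold, against 2.65% of 9201 genes in either direction. Between 3BKO and 3AKO it was also none of 8, against 9.46% of 9152 genes. The 3AKO and 3BKO comparisons share the WT cells. Over the measurable members the median log2 ratio was 0.06 in 3BKO and 0.03 in 3AKO, beside -0.08 and -0.10 over all genes examined.

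Among the ligands, Nodal summed to 125 CPM in batch 1 and 71.1 CPM in batch 2 of WT at day 9. In 3AKO it was 163 and 199 CPM, and in 3BKO 335 and 274 CPM. Batches of the genotypes did not overlap, and 3AKO lay between WT and 3BKO in both. The log2 ratio of 3BKO to WT was 1.49 (counting interval 1.42 to 1.57), with 1.41 in batch 1 and 1.93 in batch 2, and that of 3AKO to WT was 0.73, with 0.38 and 1.47. A single 3BKO cell gave 43.4% of the Nodal reads of its batch 2. Leaving out the cell with most reads in each group and batch, the 3BKO ratio was 1.26.

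The higher level was seen in most 3BKO cells. In single cells Nodal ranged from 0 to 536 CPM with a median of 57.9 CPM in WT, from 0 to 875 with a median of 122 CPM in 3AKO, and from 0 to 2042 with a median of 235 CPM in 3BKO. Of the 67 3BKO cells, 56, which is 83.6% (exact binomial interval 72.5% to 91.5%), exceeded the median of the WT cells in their batch, and of the 88 3AKO cells 61, which is 69.3% (58.6% to 78.7%), did. After every cell was thinned to 50000 reads, the share of cells with a Nodal read was 60.7% (49.8% to 70.9%) in WT, 72.7% (62.2% to 81.7%) in 3AKO and 88.1% (77.8% to 94.7%) in 3BKO. The share in 3BKO at day 9 was close to those of day 3, which were 89.9% in WT, 88% in cells labelled 3AKO and 90% in cells labelled 3BKO. Intervals of shares cover no more than the counting of cells, and intervals of sums and their ratios no more than the counting of reads. The protocol has no molecular identifiers and several reads can stem from 1 molecule, so the intervals of sums are too narrow. They also leave out the spread between cells. The summed level of the 8 epiblast markers moved in the same direction, from 5915 CPM in WT and 6231 CPM in 3AKO to 7788 CPM in 3BKO. That list holds Tdgf1, itself a member, and Dnmt3b, the gene targeted in 3BKO, so the sum is not independent of either. Its part in the Nodal level was not tested. In sums of many cells, fewer cells with a transcript and less of it per cell cannot be told apart, which is why the shares are given.

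Gdf3, a related ligand expressed in pluripotent cells, went the other way in 3BKO by a small amount. It was at 285 and 224 CPM in WT, 298 and 223 CPM in 3AKO, and 194 and 190.2 CPM in 3BKO at day 9. The 3BKO batches lay below those of the other genotypes, with a log2 ratio to WT of -0.46 (-0.55 and -0.24 in the batches), short of 2-fold. Of the 67 3BKO cells, 17, which is 25.4% (15.5% to 37.5%), exceeded the median of the WT cells in their batch.

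Tdgf1, the co-receptor without which Nodal signals poorly, was the most widely read member. At day 9 it had a read in 83.1% of thinned WT cells, 88.6% of 3AKO cells and 95.5% of 3BKO cells. It summed to 848 and 538 CPM in WT, 1028 and 705 CPM in 3AKO and 1136 and 877 CPM in 3BKO. In both batches the order was WT, 3AKO, 3BKO, with log2 ratios to WT of 0.27 and 0.43, none near 2-fold. The pseudogene Tdgf1-ps1 shares 8.67% of the 75-base windows of the longest Tdgf1 transcript and was at 26.9 to 92.8 CPM over the day 9 batches. Multi-mapped reads were left out of the counts, so reads that lie fully in these windows may be missing from both. Whether a part of the other reads of either belongs to the other was not tested.

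The receptor Acvr2b, which binds the ligand, was low and uneven. It was at 14.4 and 19.1 CPM in WT, 32 and 11.7 CPM in 3AKO and 27.9 and 7.88 CPM in 3BKO at day 9. Batch 1 was above WT and batch 2 below it in either mutant, and single cells held 48.3% and 45.3% of the batch 2 reads of 3AKO and 3BKO. No direction can be read for this gene.

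Smad2 and Smad3 are the receptor-activated transducers. Smad2 was at 65.9 and 128 CPM in WT, 73.7 and 55.9 CPM in 3AKO and 84.1 and 164 CPM in 3BKO at day 9. The 3BKO to WT log2 ratio was 0.35 in each batch, and the spread between the batches of WT was larger than this difference. Smad3 was near the limit of what could be measured, with a read in 5 to 12 thinned cells per group of day 3 or day 9, which is 7.46% to 14.5% of cells. At day 9, 57% of its 3BKO reads came from 1 cell, and no comparison over both batches was made for it there.

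Foxh1, the DNA-binding partner of the activated Smads, was lower in 3BKO. It was at 98.1 and 58.9 CPM in WT, 66.1 and 79.3 CPM in 3AKO, and 44 and 18.2 CPM in 3BKO at day 9. Both 3BKO batches lay below all batches of WT and 3AKO, whereas WT and 3AKO overlapped. The log2 ratio of 3BKO to WT was -1.46 (-1.60 to -1.32), with -1.14 and -1.64 in the batches. The call depended on how cells were weighted: it was -0.96 with cells thinned to 50000 reads before summing and -1.0 as a mean of single-cell CPM, and under neither was Foxh1 past 2-fold in both batches. The median over cells was 63.6 CPM in WT, 44.7 CPM in 3AKO and 4.45 CPM in 3BKO, with highest cells at 421, 422 and 282 CPM. In thinned cells, 66.3% (55.5% to 76%) of WT, 60.2% (49.2% to 70.5%) of 3AKO and 43.3% (31.2% to 56%) of 3BKO cells had a read.

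Foxh1 lies at chr15:76668225-76669948 on the minus strand, 28 bases from the end of Kifc2, a kinesin gene on the plus strand. Their exons share no base in GENCODE vM21, but whether strand was used in counting is not given in the sources used here, so reads that run past either end cannot be assigned with certainty. Kifc2 was at 26.2 and 25.6 CPM in WT, 18.3 and 18.1 CPM in 3AKO and 19.7 and 12.4 CPM in 3BKO at day 9. It was thus also lowest in batch 2 of 3BKO, but less far below WT than Foxh1.

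**Figure D2:**
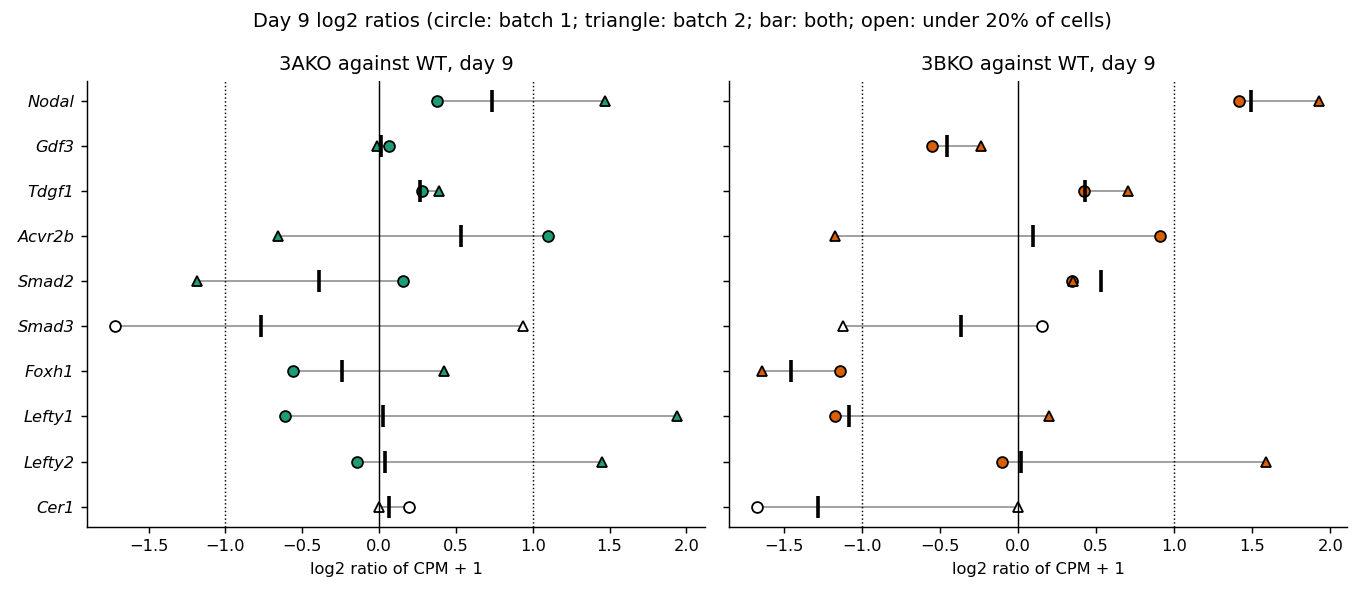
Log2 ratio of CPM + 1 to WT at day 9 (horizontal axis) for each gene in 3AKO (left) and 3BKO (right); circles are batch 1, triangles batch 2, bars both, open symbols genes under the detection limit, and dotted lines a 2-fold difference. In 3BKO Nodal lay past the right line in both batches, at 1.41 and 1.93, and Foxh1 past the left line, at -1.14 and -1.64.

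The inhibitors Lefty1 and Lefty2, which block Nodal and its co-receptor, were the most uneven of the abundant members. Lefty1 was at 604 and 138 CPM in the 2 batches of WT at day 9, 395 and 533 CPM in 3AKO and 267 and 158 CPM in 3BKO. One WT cell held 32.5% of the batch 1 reads, at 13176 CPM, and the WT batches enclose those of both mutants. The log2 ratio of 3BKO to WT was -1.09 over both batches but -1.17 in batch 1 and 0.20 in batch 2. Medians over cells were close, at 81.4 CPM in WT, 56.6 CPM in 3AKO and 90.4 CPM in 3BKO, and so were the shares of thinned cells with a read, at 59.6%, 55.7% and 56.7%. Against WT neither mutant differed with 1 sign in both batches. Against 3AKO, 3BKO was lower in both, with log2 ratios of -0.56 and -1.74, short of 2-fold in batch 1.

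Lefty2 was at 738 and 135 CPM in WT, 668 and 371 CPM in 3AKO and 686 and 408 CPM in 3BKO. The sums over both batches were nearly level, with a 3BKO to WT log2 ratio of 0.02 (-0.10 and 1.59 in the batches), while single cells were not: the median was 44.2 CPM in WT, 107 CPM in 3AKO and 385 CPM in 3BKO. In thinned cells, Lefty2 had a read in 52.8% (41.9% to 63.5%) of WT, 62.5% (51.5% to 72.6%) of 3AKO and 73.1% (60.9% to 83.2%) of 3BKO cells. The WT sum rested on few cells, the highest at 11761 CPM. Lefty1 and Lefty2 share 173 of their 75-base windows, which is 11.2% of Lefty1 and 7.21% of Lefty2. Multi-mapped reads were left out of the counts, so reads that lie fully in these stretches may be missing from both.

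**Figure D3:**
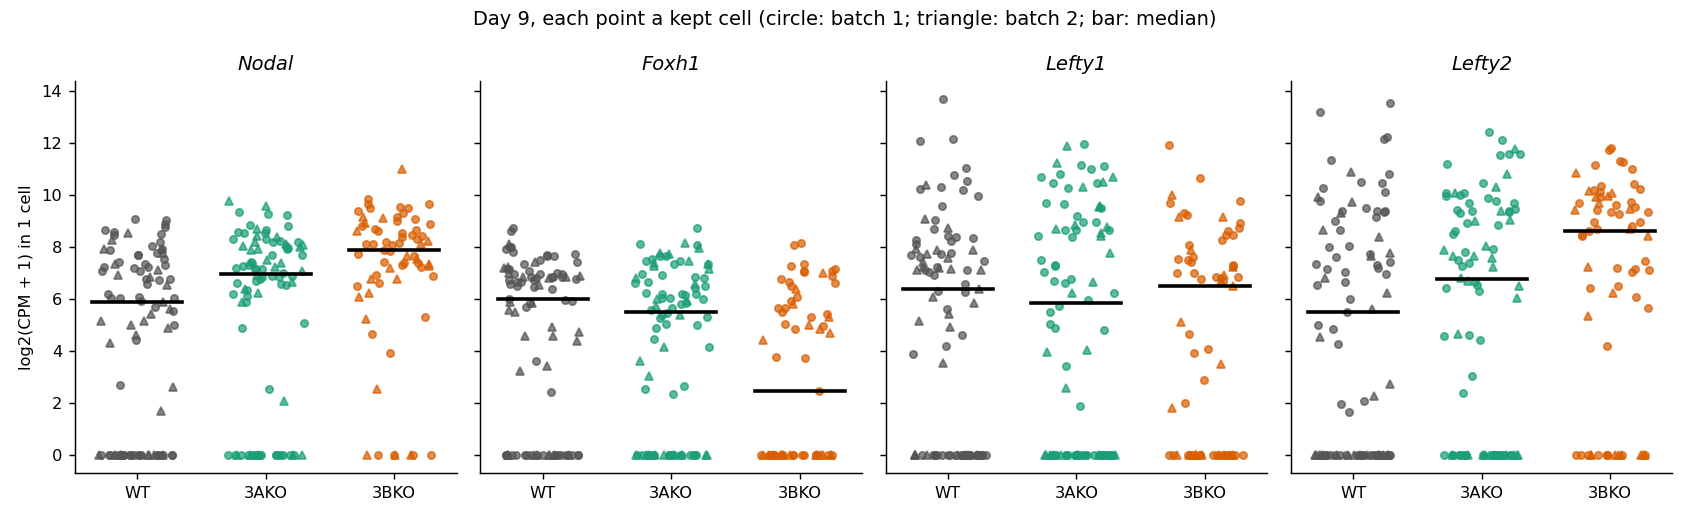
Nodal, Foxh1, Lefty1 and Lefty2 in each kept cell of day 9 (vertical axis, log2(CPM + 1)) by genotype; circles are batch 1, triangles batch 2 and bars the median over cells. The median of Nodal goes from 57.9 CPM in WT to 235 CPM in 3BKO and that of Lefty2 from 44.2 to 385 CPM, whereas that of Foxh1 goes from 63.6 to 4.45 CPM.

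The balance of the pathway's members within a library can be read from ratios of reads, in which the library total cancels. Reads of Lefty2 to reads of Lefty1 stood at 2.57 in batch 1 and 2.58 in batch 2 of 3BKO at day 9, against 1.22 and 0.98 in WT and 1.69 and 0.70 in 3AKO. Reads of Lefty1 to reads of Nodal were 0.80 and 0.58 in 3BKO, 2.43 and 2.67 in 3AKO and 4.83 and 1.94 in WT. Reads of Foxh1 to reads of Nodal were 0.13 and 0.067 in 3BKO, 0.41 and 0.40 in 3AKO and 0.78 and 0.83 in WT. In these 3 ratios both 3BKO batches lay outside the range of WT and 3AKO, and the Foxh1 to Nodal ratio also set 3AKO apart from WT in both batches. Reads of Lefty2 to reads of Nodal did not set 3BKO apart, at 2.05 and 1.49, since WT had 5.90 and 1.90 and 3AKO 4.10 and 1.86. At day 3 the Foxh1 to Nodal ratio was 0.70 and 0.74 in WT. In the batch 1 libraries of day 3 it was 0.36 under the label 3AKO and 0.78 under the label 3BKO. In batch 2, whose labels are in doubt, the order was the reverse, at 0.67 under 3AKO and 0.34 under 3BKO. In both batches the lower value was on plate 211.

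Cer1, an antagonist secreted by anterior endoderm, had reads in 2 cells only. Both were from batch 1 of day 9, 1 WT cell with 50 reads and 1 3AKO cell with 37 reads. The other 4 groups had none, and 0 of 67 3BKO cells allows a share of cells with a read of up to 4.48%, taking 3 cells as the limit of a count of 0. The WT cell was the same one that held the highest Lefty1 level, at 13176 CPM, and Lefty2 at 11761 CPM, and it had no endoderm or primitive streak marker with 2 reads or more. The 3AKO cell had at least 2 reads in T, Mixl1, Eomes, Gsc and Foxa2, genes of the primitive streak and its derivatives, with Lefty1 at 155 CPM and Lefty2 at 935 CPM.

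Between day 3 and day 9 no member of WT was past 2-fold, of 8 measurable and against 7.44% of 10162 genes in either direction. Nodal was at 150.5 and 88 CPM at day 3 and 125 and 71.1 CPM at day 9, a log2 ratio of -0.21 (-0.26 and -0.30), beside a median of 0.19 over all genes examined. Foxh1, at 105 and 65.2 CPM at day 3, moved by -0.05. Lefty1 went from 891 and 577 CPM to 604 and 138 CPM and Lefty2 from 1035 and 666 CPM to 738 and 135 CPM, with log2 ratios of -0.77 and -0.72, which were -0.56 and -0.49 in batch 1 and -2.06 and -2.29 in batch 2. Without the cell with most reads in each group and batch they were -1.09 and -0.86. Lower levels went with fewer cells that had a read. Reads of Lefty1 were found in 89.9% of thinned WT cells at day 3 and 59.6% at day 9, and reads of Lefty2 in 88.6% and 52.8%.

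In 3BKO, Nodal was higher and Lefty1 lower at day 9 than in cells so labelled at day 3. Each was 1 of 8 measurable members, against 6.77% of 10042 genes higher and 5.59% lower. Nodal went from 150.5 CPM to 335 CPM in batch 1 and from 110.1 CPM to 274 CPM in batch 2, log2 ratios of 1.15 and 1.31. Lefty1 went from 1315 to 267 CPM and from 805 to 158 CPM, ratios of -2.29 and -2.34. Foxh1 went from 118 to 44 CPM and from 37.2 to 18.2 CPM, ratios of -1.40 and -0.99, short of the fold in batch 2. The batch 2 values rest on day 3 libraries whose Dnmt3a level went against their label. In batch 1 of day 3 labelled 3BKO, Dnmt3b itself was at 167 CPM, below the 600.2 CPM of WT but above the 15.9 CPM of 3BKO at day 9.

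In 3AKO, Lefty2 was the 1 of 9 measurable members lower at day 9 than under that label at day 3, against 3.11% of 9945 genes. It went from 1610 to 668 CPM in batch 1 and from 776 to 371 CPM in batch 2, ratios of -1.27 and -1.06. As a mean of single-cell CPM it was not past 2-fold in both batches. Lefty1 went from 1384 to 395 CPM in batch 1 but from 602 to 533 CPM in batch 2. Nodal moved by -0.56 in batch 1 and 0.81 in batch 2, with no common direction.

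At day 3 the mutant labels differed little from WT in these genes. None of 8 measurable members was past 2-fold in both batches under the label 3AKO, against 1.22% of 10362 genes, or under the label 3BKO, against 1.08% of 10236. Since the batch 2 labels are in doubt, batch 1 is given alone: Nodal was at 150.5 CPM in WT, 240.2 CPM under 3AKO and 150.5 CPM under 3BKO, and Foxh1 at 105, 85.8 and 118 CPM. The 1 member past 2-fold in batch 1 was Smad3, higher under both labels, on 15 reads in WT, 89 under 3AKO and 52 under 3BKO, where 8.53% and 6.04% of all genes were past it in either direction. Batch 2 alone had no member past it under either label, against 19.7% and 18.8% of all genes.

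Cells that read the whole loop at once became fewer by day 9. Nodal, Gdf3, Tdgf1, Foxh1, Lefty1 and Lefty2 all had a read in 67.1% (55.6% to 77.3%) of thinned WT cells at day 3, 62.7% of cells labelled 3AKO and 56.3% of those labelled 3BKO. At day 9 this was 21.3% (13.4% to 31.3%) in WT, 28.4% (19.3% to 39%) in 3AKO and 14.9% (7.40% to 25.7%) in 3BKO. The intervals of the genotypes overlap at day 9. Cells of day 9 also had fewer detected genes of any kind. The median per group and batch, without thinning, was 7015 to 7328 at day 3 and 5591.5 to 6069 at day 9. The part of this in the lower shares was not tested. No cell of day 3 had a read in fewer than 2 of the 6 genes, and at day 9 this held for 10 WT, 9 3AKO and 3 3BKO cells.

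Nodal was read without Foxh1 in 34 of 67 3BKO cells at day 9, in 20 of 88 3AKO cells and in 12 of 89 WT cells. The reverse, Foxh1 without Nodal, held for 4, 9 and 17 cells. Nodal and Foxh1 were both read in 37.3% of 3BKO, 50% of 3AKO and 47.2% of WT cells. If the genes were read independently, the product of their shares would give 38.1%, 43.8% and 40.2%. The 3BKO share was thus near its product, whereas those of WT and 3AKO lay above theirs. The counting intervals of WT (36.5% to 58.1%) and 3AKO (39.1% to 60.9%) still hold their products. Whether the pair was less coupled in 3BKO was not tested. Tdgf1 was read in 56 of the 59 thinned 3BKO cells with Nodal, and in 60 of 64 and 50 of 54 in 3AKO and WT. Ligand and co-receptor were thus read together in most cells with the ligand in each genotype. Since Tdgf1 was read in most cells, the product of shares already gives much of this. Nodal and Tdgf1 were both read in 83.6% of 3BKO, 68.2% of 3AKO and 56.2% of WT cells. The products were 84.1%, 64.5% and 50.4%. Lefty2 without Lefty1 was found in 19 3BKO, 16 3AKO and 12 WT cells, and Lefty1 without Lefty2 in 8, 10 and 18.

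Across single cells the pair that varied together most was Lefty1 and Lefty2. Spearman's rho of CPM was taken within each of the 12 combinations of group and batch and averaged with weights by cell number, over 486 cells, so that differences between groups do not enter. The cells of a combination share a plate and differ in depth, and no p-value is given. For Lefty1 and Lefty2 the mean rho was 0.54, from 0.21 to 0.75, above 0 in 12 of 12 combinations, with 0.52 at day 3 and 0.57 at day 9. Adjusting the ranks for total reads and detected genes left 0.52. The genes are neighbours on chromosome 1 (chr1:180893108-180899103 for Lefty2 and chr1:180935022-180938400 for Lefty1, GRCm38), 35918 bases apart on the same strand.

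**Figure D4:**
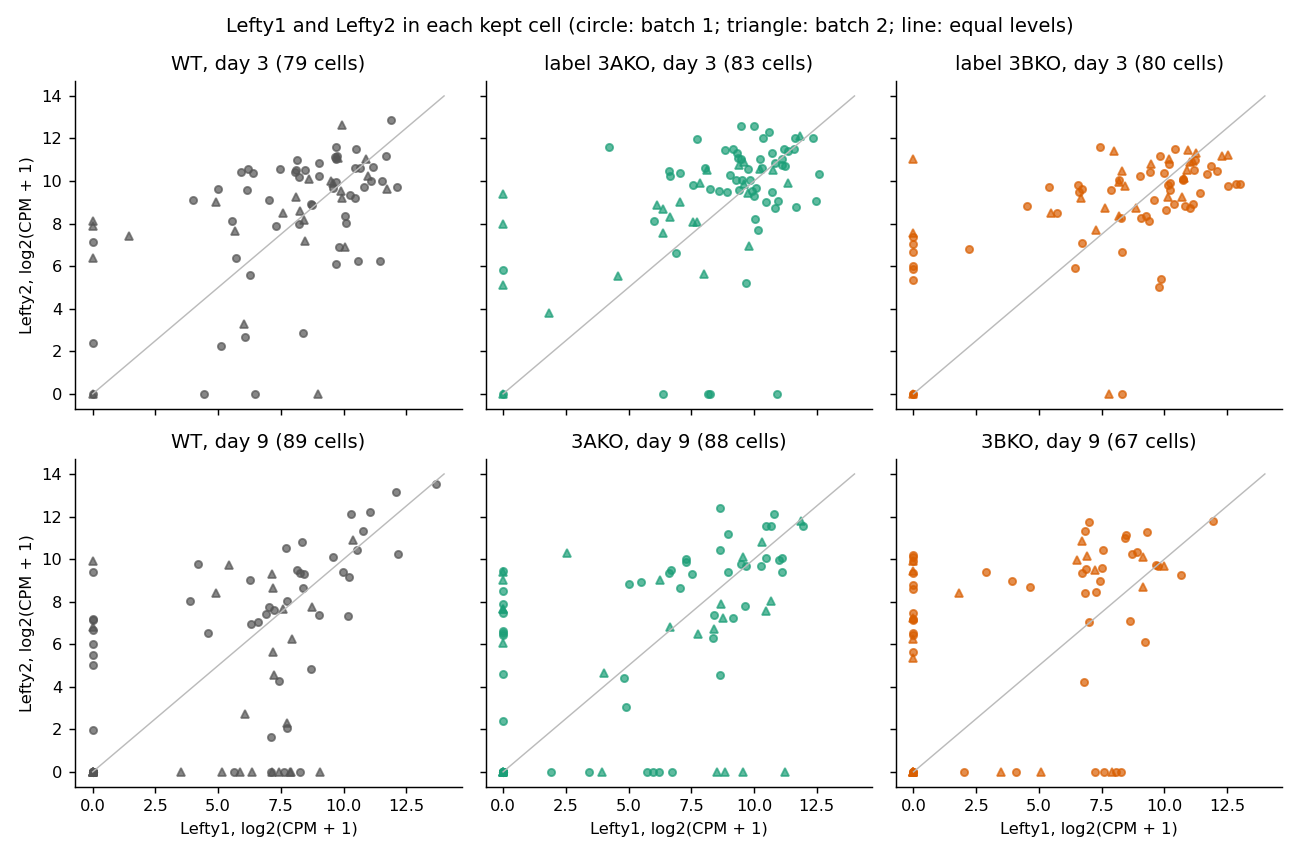
Lefty1 (horizontal) against Lefty2 (vertical), both log2(CPM + 1), in each kept cell of the 6 groups; circles are batch 1, triangles batch 2 and the line equal levels. The 2 genes vary together in every group, and in 3BKO at day 9 there were 19 thinned cells with a Lefty2 read and none of Lefty1, against 8 of the reverse.

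Other pairs were weaker. Gdf3 and Lefty2 had a mean rho of 0.32, above 0 in 11 of 12 combinations, Gdf3 and Tdgf1 0.20 and Tdgf1 and Lefty2 0.17. The ligand Nodal had lower values with its own inhibitors, 0.11 for Lefty1 and 0.15 for Lefty2, each above 0 in 9 of 12 combinations. For comparison, 5% of 8813 genes reached 0.12 or more with Nodal, and Lefty2 lay above that level and Lefty1 below it. Both are low values in sparse counts. At day 9 the rho of Nodal and Foxh1 was 0.25 and 0.30 in batches 1 and 2 of WT and 0.33 and 0.21 in 3AKO. In 3BKO it was -0.03 and -0.09, and the difference between genotypes was not tested. Acvr2b and Smad2 had mean values between -0.08 and 0.06 with each other and all other members, and Smad3 and Cer1 were read in too few cells to be included.

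**Figure D5:**
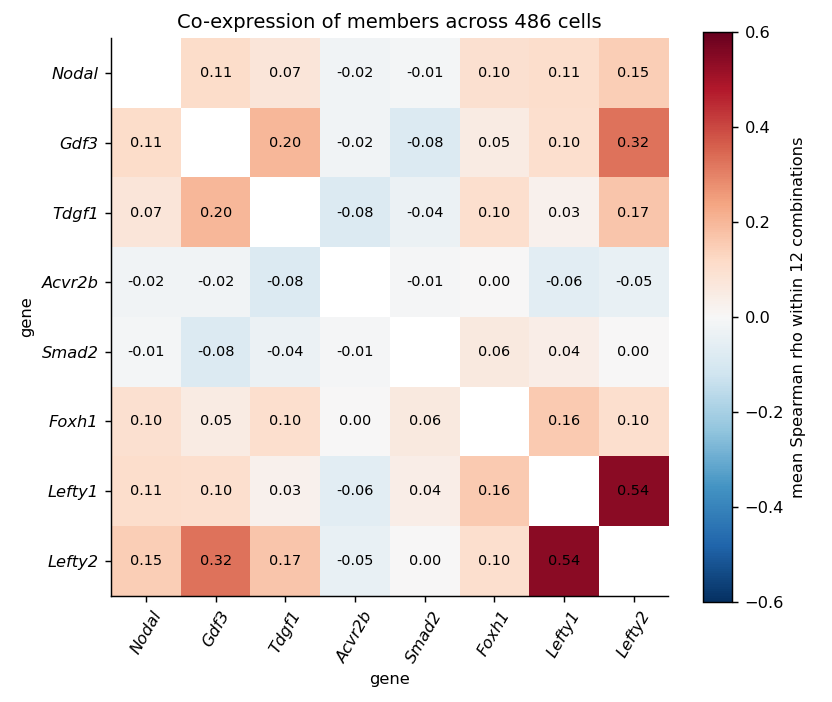
Mean Spearman rho of each pair of 8 members across cells, computed within 12 combinations of group and batch and averaged (colour and number in each field; both axes list the genes). Lefty1 with Lefty2 stands out at 0.54, followed by Gdf3 with Lefty2 at 0.32.

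Genes most like a member by the same measure were often its neighbours on the chromosome or its copies. For Foxh1 it was Kifc2, the gene 28 bases away, at 0.79 and above 0 in 12 of 12 combinations, followed by Dnmt3b at 0.29, Limd2 at 0.27, Vrtn at 0.27 and Trh at 0.26. For Tdgf1 it was its pseudogene Tdgf1-ps1 at 0.90, followed by Upp1 at 0.46, Mkrn1 at 0.33, Acp6 at 0.31 and Ncoa3 at 0.31. The genes like Lefty1 included, besides Lefty2, Tlcd1 at 0.24 and Tmem63a at 0.23, and Tmem63a lies 3943 bases beyond Lefty1. Those like Lefty2 included, besides Lefty1, Fam25c (0.35), the pluripotency factor Nanog (0.35) and Gdf3 (0.32).

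The remaining members had no neighbour among their closest genes. Nodal was most like Dhx16 (0.27), Cdkn1a (0.27), Ass1 (0.27), Fgf4 (0.25) and Phlda3 (0.24). Gdf3 was most like Chchd10 (0.40), Spp1 (0.40), Gsta4 (0.38), Mymx (0.38) and Dppa5a (0.37). For Acvr2b the highest value was 0.23 (Pcbp4), followed by Fam193b, Lsr, Lpar4 and Zfp511 down to 0.21. For Smad2 it was 0.18 (Ggps1), followed by Syngr2, Nbr1, Ap3m1 and Ubr3 down to 0.16.

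Other genes of the pathway were looked at in 5 lists, whose calls in 3BKO against WT stand beside 2.86% of all genes higher and 4.98% lower. In 3BKO against WT at day 9, of 9 other ligands and convertases 1 was measurable and none was past 2-fold, and of 6 other receptors and co-receptors 3 were measurable and none was past it. Of 15 other inhibitors 8 were measurable and 1 was lower, Drap1, a corepressor that binds Foxh1, at 12.2 CPM in WT and 3.57 CPM in 3BKO. Of 6 other transducers 5 were measurable and none was past 2-fold. Of 19 target and mesendoderm genes 5 were measurable and 1 was lower, Fgf5, a gene of the primed epiblast, at 61.1 CPM in WT and 2.11 CPM in 3BKO, a log2 ratio of -4.32. The median log2 ratio of the 5 measurable targets was 0.79, beside -0.08 over all genes.

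In 3AKO against WT no gene of the 5 lists was past 2-fold. Between 3BKO and 3AKO, where 9.46% of all genes were past it, 1 of 9 measurable inhibitors was lower, Fst, at 1.16 CPM against 75.5 CPM, and of the targets Hhex was lower at 2.28 against 11.9 CPM. Nanog was higher, at 1004 CPM against 438 CPM. In WT from day 3 to day 9, against 7.44% of all genes, 1 of 8 measurable targets was higher, Nanog, at 561 CPM from 216 CPM, and 1 of 9 measurable inhibitors was lower, the ubiquitin ligase Smurf1, at 3.50 CPM from 8.52 CPM. Between the days, 1 of 10 measurable inhibitors, Fst, was higher under the label 3AKO, against 2.57% of all genes. Under the label 3BKO 1 of 3 measurable receptors, Acvr1b, was higher, as were the targets Otx2 and Nanog, against 6.77% of all genes. At day 3, 1 of 8 measurable targets, Eomes, was lower under the label 3AKO than in WT, against 1.22% of all genes in either direction.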

How the data were processed

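The authors trimmed reads with Trim Galore 0.5.0, aligned them to GRCm38 with STAR 2.7.1a and deposited raw read counts per gene name from featureCounts 1.6.1. Multi-mapped reads were left out, and the strand setting is not given in the sources used here. The 26 columns of empty and mini-bulk wells were not used. Samples were grouped by the genotype and day of the labels. Batch 1 is plate columns 1 to 8 and batch 2 columns 9 to 12.

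Counts were summed over kept cells as CPM, and log2 ratios used CPM + 1, which understates low genes. Sums have exact Poisson intervals and shares exact Clopper-Pearson intervals at 95%. Computation used Python 3.11.15, numpy 2.4.6, scipy 1.17.1 and, for scaling factors, edgeR 4.0.16 and DESeq2 1.42.0. The scripts were tested on simulated data. Exon lengths and positions are from GENCODE vM21. Wells were sorted to hold 1 cell, and doublets were not searched for.

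All 10 members were named, with list genes past 2-fold and the 5 genes of highest mean rho for each member read in at least 20% of cells, leaving out mitochondrial and unnamed gene models. Some genes that this rule names are not reported here. Members, lists and tests were chosen with earlier results of these data known. The alternatives were cell filters, batches alone, other scalings, pseudocounts, thinning, detection limits, fold limits and leaving out the cell with most reads.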

Additional observations from a re-analysis of the deposited data

Results flagged for a closer look

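Between day 3 and day 9, 2 ligands moved in opposite directions in WT and in 3BKO, each with 1 sign in both batches. Nodal had a log2 ratio of -0.21 in WT (-0.26 and -0.30 in batches 1 and 2) and of 1.18 in 3BKO (1.15 and 1.31). Gdf3 had 0.46 in WT (0.35 and 0.58) and -0.19 in 3BKO (-0.23 and -0.13). The difference between the genotypes was not tested, since each genotype and day is 1 sample, and the day 3 libraries of batch 2 labelled 3BKO went against their label. The median over all genes was 0.19 in WT and 0.05 under the label 3BKO. No group had the 4 to 10 samples needed to look for outlying samples.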

How the results depend on the processing

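No paired analysis was possible because each genotype and day was 1 sample and no result came from a test. With batch 1 alone the count of members past 2-fold was 1 in 3AKO against WT at day 9, 1 in 3BKO against 3AKO, 1 in WT between days, 2 under the label 3AKO between days, 4 under the label 3BKO between days, and 1 under each label at day 3. In 3BKO against WT at day 9, batch 1 alone had Nodal (1.41), Foxh1 (-1.14) and Lefty1 (-1.17) past it. With batch 2 alone the counts were 4 in 3AKO and 5 in 3BKO against WT at day 9, 4 in 3BKO against 3AKO, 3 in WT, 2 under the label 3AKO and 4 under the label 3BKO between days. More of all genes pass in 1 batch alone. At day 3 it was 8.53% and 6.04% in batch 1 and 19.7% and 18.8% in batch 2, against 1.22% and 1.08% over both. For the other counts from 1 batch or another fold limit this share is not given here. In 3BKO against WT the count was 1 (Nodal) as a mean of single-cell CPM and with thinned cells, and 0 at a log2 ratio of at least 1.5. Between days under the label 3AKO it was 0 as a mean of single-cell CPM and 0 at 1.5, and under the label 3BKO 4 at 0.5 and 1 at 1.5. In WT between days it was 1 (Smad3) with detection in 10% of cells or no filter on detection and 2 at 0.5, and in 3BKO against 3AKO 2 at 0.5. Of 136 counts under alternatives 112 were within 1.5 times the main count, and the cause of the others was not tested. The 6 alternatives for the mean rho of Lefty1 and Lefty2 gave 0.50 to 0.56. Of the calls, Nodal in 3BKO against WT was lost only at the limit of 1.5, and no called member turned its direction under any alternative.

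TMM factors moved the median log2 ratio over all genes from -0.08 to 0.06 in 3BKO against WT and from 0.19 to -0.03 in WT between days, and the share of calls that were higher from 36.5% to 48.8% and from 70.5% to 43.5%. In 3AKO against WT this share went from 40.2% to 51.6%, under the label 3AKO between days from 45.3% to 30.9% and under the label 3BKO from 54.8% to 44%. Depth limits Smad3 and Cer1 most. Taking 3 reads as the limit of a count of 0, the groups with no Cer1 read allow up to 0.0991 to 0.152 CPM.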
